A study of Mus musculus with 2 samples.

Results

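Metalloproteinases and their tissue inhibitors were compared between whole lungs carrying 2 kinds of Lewis lung carcinoma (LLC) tumour. Members were the genes whose annotated symbol is Mmp, Adam, Adamts or Timp with a number and read by a probe set of their own, with the Adamtsl genes left out. This gave 65 of the 18193 genes with such a probe set: 18 MMP, 28 ADAM, 15 ADAMTS and 4 TIMP genes, read by 116 probe sets. The hosts were C57BL/6 mice aged 6 to 8 weeks that each received 500000 LLC cells in 200 µL through a tail vein, and lungs were taken on day 19. LLC is a mouse lung carcinoma line that forms tumours in the lung by this route. The vector control group carried LLC cells transfected with vector, and the TDAG8 group carried LLC cells overexpressing TDAG8, a proton-sensing receptor encoded by Gpr65. The labels do not say whether the transfected cells were 1 clone or which promoter drove TDAG8. For each group the total RNA of 10 lungs was combined and read on 1 Affymetrix array. There was therefore no replicate, no test and no error on any value. All differences below describe these 2 pools, and having only 2 arrays limits the precision.

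MMPs are secreted or membrane-bound zinc proteases that cut collagens, elastin and other matrix proteins. ADAMs are membrane proteases that release the outer parts of receptors and growth factors, and ADAMTS proteins are secreted relatives that cut proteoglycans, procollagens and von Willebrand factor. TIMPs bind and block these enzymes with different preferences, and in lung the balance of proteases and inhibitors takes part in elastin turnover, leukocyte entry and tumour spread.

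The values are array intensities on a linear scale. An intensity under the 50th percentile of its array was treated as below the floor and was raised to it. The floor was 26.3 for vector control and 24.3 for TDAG8. A difference is the log2 of TDAG8 divided by vector control, centred on the median of the 11044 genes that passed both floors, and folds are given after centring. Where 1 array was below the floor the fold can only be a bound and is written with "at least". Intensities of different genes are not compared, because each probe set has its own response.

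Of the 65 members 33 were above the floor on at least 1 array, 26 of them on both, 3 on the TDAG8 array only and 4 on the vector control array only. The other 32 were below it on both arrays. Among the 26 members above the floor on both arrays, 3 were at least 2-fold higher with TDAG8, namely Timp1, Adam8 and Mmp14, where 4.96% of all genes above both floors passed that limit. None of the 26 was at least 2-fold lower, against 1.09% of all genes. At 1.5-fold, 5 of the 26 were higher and 7 were lower, or 19.2% and 26.9%, where the shares over all genes were 13.8% and 12.2%. The median log2 ratio of the 26 was -0.16, with 10 above 0 and 16 below, whereas the median of all genes was 0 by the centring. With the 7 members above the floor on 1 array only added, their other value raised to the floor, the median was -0.10. Of the 3 members that passed the floor with TDAG8 alone, Adamts4 and Mmp13 had bounds over 2-fold. They brought the count of higher members to 5 of 33, beside 5.41% of all genes above the floor on at least 1 array, and the count of lower members remained 0, beside 1.19%. Their direction followed largely from which array passed the floor, so these counts describe the values and carry no further weight.

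**Figure D1:**
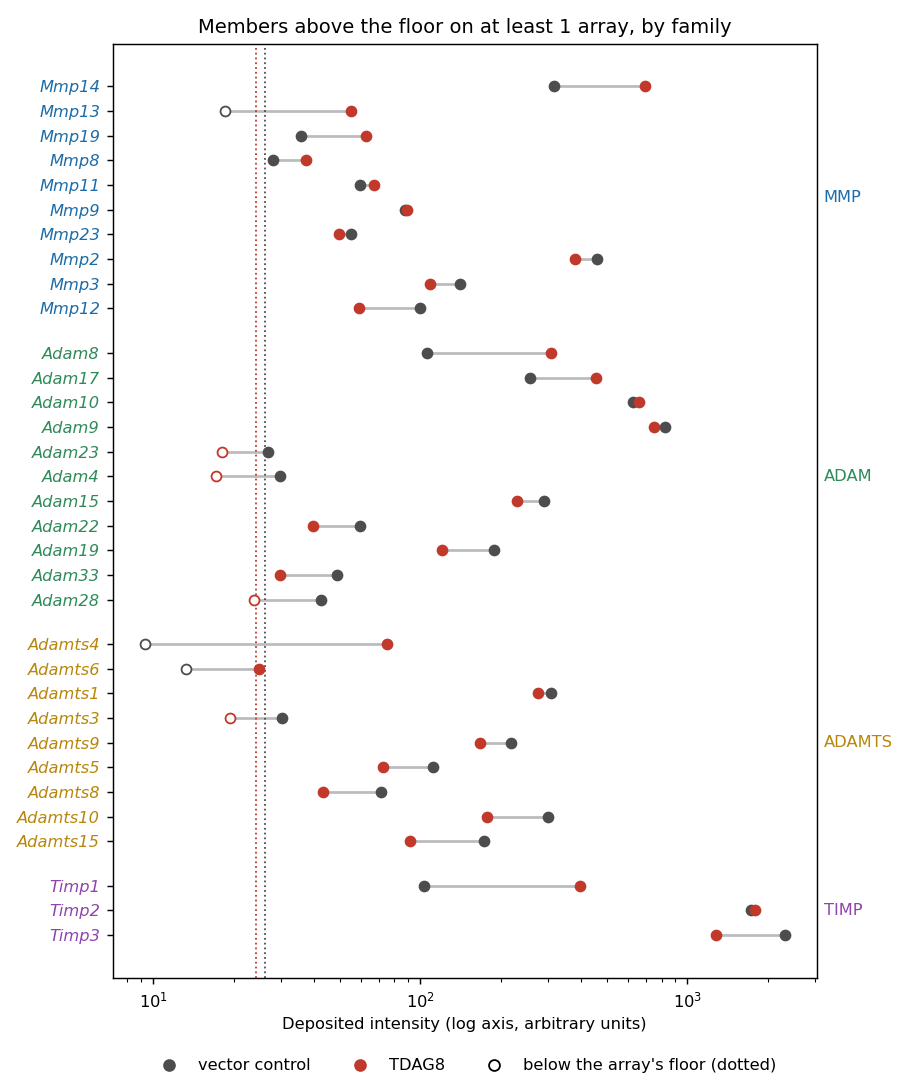
Deposited intensity of the 33 members above the floor on at least 1 array, on a log axis in arbitrary units, with the vector control array in grey and the TDAG8 array in red. Open circles lie below the floor of their array, drawn as dotted lines at 26.3 and 24.3. The widest gaps to the right are those of Timp1, Adam8, Mmp14, Mmp13 and Adamts4, and all ADAMTS genes above both floors lie further left on the TDAG8 array.

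The TIMP genes went in different directions. Timp1, a soluble inhibitor of most MMPs that inflammatory and growth signals induce, had an intensity of 103 with vector control cells and 396 with TDAG8 cells. That is a log2 ratio of 2.00, or 4.01-fold higher, the highest among the members above both floors. Timp3, which stays bound to matrix and blocks ADAM17 and the aggrecanases as well as MMPs, went from 2312 to 1280, a log2 ratio of -0.80 or 1.74-fold lower. The other 3 probe sets of Timp3 went from 2295 to 1261, from 855 to 448 and from 641 to 303, so every one of the 4 was lower on the TDAG8 array, by log2 ratios of -0.80 to -1.02. Timp2, which also helps MMP14 to activate pro-MMP2 at the cell surface, depended on the probe set. The one standing for the gene went from 1723 to 1793, a log2 ratio of 0.12. The next went from 1748 to 1366 and another from 1502 to 1090, at -0.30 and -0.40, and the remaining pair above the floor were at -0.45 and -0.63. With the mean over probe sets Timp2 was at -0.33, of opposite sign, so no direction is given for it. Timp4, the family member best known from heart, was below the floor on both arrays, at 24.3 and 20.1.

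Among the membrane-anchored MMPs, Mmp14 (MT1-MMP), which cuts fibrillar collagen and activates pro-MMP2, went from 317 to 692. Its log2 ratio was 1.18, or 2.27-fold higher. A second probe set went from 92.7 to 233 and another from 56.0 to 95.8, 2.62-fold and 1.78-fold higher, so all 3 were above on the TDAG8 array. Mmp16, Mmp17 and Mmp24 were below the floor on both arrays.

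The gelatinases, which digest denatured collagen and basement membrane, lay near the centre of all genes. Mmp2, made by fibroblasts and other stromal cells, went from 460 to 379, a log2 ratio of -0.22, and its second probe set was at -0.23. Mmp9, carried by neutrophils and macrophages, went from 87.6 to 89.3 and was at 0.09, with a second probe set at 0.29. Both values lie inside the middle part of all genes above both floors, whose quartiles were at -0.33 and 0.34.

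The collagenases were dim. Mmp13, a collagenase of bone, cartilage and invading tumour stroma, went from 18.5, below the floor, to 54.9 and was at least 2.17-fold higher. At a floor of the 65th percentile neither array passed, and with an offset in place of the floor its log2 ratio was 0.89. Mmp8, the neutrophil collagenase, went from 28.1 to 37.3, a log2 ratio of 0.47 from a control value just above the floor. Mmp1a and Mmp1b were below the floor on both arrays.

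Of the other MMPs, Mmp12, the macrophage elastase that acts on elastin of the alveolar wall, went from 100.1 to 59.2, 1.62-fold lower. Mmp3 (stromelysin-1), a broad matrix protease that also activates other MMPs, went from 141 to 109, a log2 ratio of -0.32. Mmp19, a soluble MMP with basement membrane substrates, went from 35.7 to 62.6, 1.83-fold higher, with a second probe set going from 30.9 to 46.0. At a floor of the 65th percentile the Mmp19 control value no longer passed, and the log2 bound was 0.05. Mmp11, made by stroma next to tumour cells, went from 59.5 to 67.2, at 0.23. Mmp23 went from 55.1 to 49.7, at -0.09, while its second probe set went from 52.6 to 28.7, at -0.82. Mmp7, Mmp10 and Mmp20 were below the floor on both arrays. Over the 9 MMP genes above both floors 5 were above 0 and 4 below, with a median log2 ratio of 0.09, and 0.16 with Mmp13 at its bound.

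By RefSeq gene order, 10 MMP genes stand in a row on chromosome 9, and 9 of them are members here. Mmp13 and Mmp8 were higher on the TDAG8 array, Mmp12 and Mmp3, in the same row, were lower, and the other 5 were below the floor on both arrays. The stretches just before their start sites are shown because many of these genes share a loose form of the binding motif of AP-1, the Fos and Jun transcription factor. The AP-1 subunit gene Fosl1 had intensities of 27.2 and 320 on these arrays, a log2 ratio of 3.61 from a control value just above the floor. Of the other AP-1 subunit genes listed, Junb was at 0.88, Fos at 0.44 and Fosl2 at 0.36. Jun was at -0.06 and Jund at -0.13, and Fosb was below the floor on both arrays. RefSeq promoter sequences of GRCm38.p6 were held for 37 of the 65 members. The 250 bases before the start site were searched on both strands for TGANTCA, which reads the same on both. Its middle base is free, so it is broader than the usual AP-1 site, TGACTCA or TGAGTCA. The motif was in 10 of the 37 members (27.0%) and in 7.82% of 27025 genes. Of the 9 chromosome 9 genes 8 had it, against 2 of the other 28 members, so most of the 10 came from this row. Mmp8, higher on the TDAG8 array, was the gene of the row without it. In Mmp20 of the row and in Adam25 outside it the match was TGAATCA, which is not the usual AP-1 site. The 100 bases before the start are given 5′ to 3′ on the strand of the gene, with TGANTCA in capitals. First come 4 genes of the row with the motif, 2 of which were lower on the TDAG8 array, 1 of which was higher and 1 of which was below the floor on both arrays.
Mmp13, chr9:7272414-7272513, plus strand: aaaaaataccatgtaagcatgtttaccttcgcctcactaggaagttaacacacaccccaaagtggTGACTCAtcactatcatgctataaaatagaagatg
Mmp3, chr9:7445722-7445821, plus strand: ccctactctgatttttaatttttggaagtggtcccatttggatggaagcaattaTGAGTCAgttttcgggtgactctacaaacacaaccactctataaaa
Mmp12, at 1 of its 2 listed starts, chr9:7347274-7347373, plus strand: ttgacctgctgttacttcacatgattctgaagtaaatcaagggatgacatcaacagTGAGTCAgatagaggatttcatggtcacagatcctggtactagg
Mmp10, chr9:7502242-7502341, plus strand: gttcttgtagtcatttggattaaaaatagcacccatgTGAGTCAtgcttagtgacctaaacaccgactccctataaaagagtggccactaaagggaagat

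The motif starts 35 bases before the start of Mmp13, 46 before that of Mmp3, 44 before the listed start of Mmp12 and 63 before that of Mmp10. On the TDAG8 array Mmp13 was higher by a bound, and Mmp3, at -0.32, and Mmp12, at -0.70, were lower. Any part of AP-1 in these values was not tested. The second set shows the other 3 members with a promoter sequence that were at least 2-fold higher. None of them holds TGANTCA in the 250 bases searched.
Timp1, chrX:20870066-20870165, plus strand: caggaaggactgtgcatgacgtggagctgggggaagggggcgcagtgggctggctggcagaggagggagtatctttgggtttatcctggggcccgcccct
Adam8, chr7:139992563-139992662, minus strand: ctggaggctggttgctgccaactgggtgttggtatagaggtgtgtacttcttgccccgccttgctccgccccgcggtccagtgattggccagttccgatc
Mmp14, chr14:54431498-54431597, plus strand: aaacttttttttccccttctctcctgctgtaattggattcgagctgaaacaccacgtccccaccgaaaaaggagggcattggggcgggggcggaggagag

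A further pair of motifs known from MMP promoters was searched in the same way. AGGAAG, bound by the PEA3 group of Ets factors, was in 16 of the 37 members (43.2%) and in 32.3% of all genes. The TATA box TATAAA was in 10 members (27.0%) and in 14.3% of all genes, and 7 of these 10 were in the chromosome 9 row and also had TGANTCA. A match is a description of the letters in this window and no evidence that a factor binds there.

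**Figure D2:**
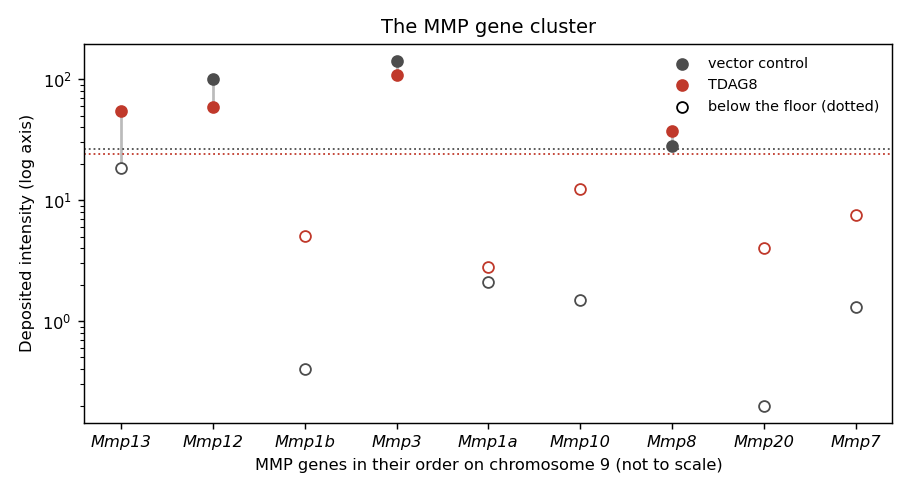
Deposited intensity, on a log axis, of the 9 members of the MMP row on chromosome 9 in gene order, with the vector control array in grey and the TDAG8 array in red. Open circles are below the floor (dotted) and have no order, and a grey line joins the values of the 4 genes above it on at least 1 array. Mmp13 went from 18.5 to 54.9 and Mmp12 from 100.1 to 59.2.

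The ADAM genes with a working protease were led by 2 that were higher. Adam8, a sheddase of macrophages, neutrophils and some tumour cells, went from 106 to 308, a log2 ratio of 1.59 or 3.01-fold higher, by its only probe set. Adam17, which releases tumour necrosis factor and ligands of the EGF receptor, went from 258 to 453.5, 1.83-fold higher. Its other 2 probe sets went from 139 to 248 and from 89.1 to 146, so the 3 lay between 0.77 and 0.90 on the log2 scale. Adam10, the relative of Adam17 that cuts Notch and E-cadherin, went from 625 to 660.4 and was at 0.14, with its 3 probe sets above the floor between 0.03 and 0.21. Adam9 went from 822 to 752, a log2 ratio of -0.07.

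Several ADAM genes of somatic cells were lower on the TDAG8 array. Adam15, found in endothelial and smooth muscle cells, went from 289 to 229.6, at -0.28, with its 4 probe sets between -0.50 and -0.17. Adam19, which processes neuregulins, went from 189 to 121, 1.51-fold lower. Adam33, of airway smooth muscle and fibroblasts, went from 48.8 to 29.8, a value near the floor, 1.57-fold lower. Its second probe set was below the floor on both arrays, and Adam33 was measured under 6 of the 8 alternatives. Adam28, of lymphocytes and epithelium, went from 42.4 to 23.8, just under the floor, which makes it at least 1.68-fold lower. Adam12 was below the floor on both arrays, at 16.9 and 22.2.

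Of the ADAMs that lack an active site and serve as receptors in brain, Adam22 went from 59.7 to 39.8, a log2 ratio of -0.53. Adam23 went from 26.8 to 18.1, a bound of -0.08 that took the other sign under 2 alternatives. Adam11 was below the floor on both arrays. Of 16 ADAM genes of testis and epididymis 15 were below the floor on both arrays, and Adam4 went from 29.8 to 17.2, at least 1.18-fold lower. Over the 8 ADAM genes above both floors 3 were above 0 and 5 below, with a median of -0.17, and -0.24 with the 3 genes at their bounds.

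The ADAMTS genes above both floors were lower on the TDAG8 array, while Adamts4, below the floor in the control, was higher. All 6 above both floors had log2 ratios below 0, with a median of -0.61, where 50% of all genes above both floors lay below 0. Each of the 6 kept its sign under all alternatives in which it was measured. Adamts15, a protease of versican and aggrecan, went from 172.5 to 91.5, 1.81-fold lower and the lowest ratio among the members above both floors. Adamts8, of the same substrate group and its neighbour on chromosome 9, went from 71.0 to 43.3, 1.57-fold lower. Adamts5, an aggrecanase, went from 111 to 72.6, at -0.56. A second probe set of Adamts5 went from 80.1 to 52.2 and another, near the floor, from 27.0 to 25.1. Adamts1, its neighbour on chromosome 16, went from 308 to 275, at -0.10. Adamts9, also a versican protease, went from 218 to 167, at -0.33. Adamts10, which binds fibrillin microfibrils, went from 299 to 178, 1.62-fold lower.

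Adamts4, the other aggrecanase and an enzyme induced by inflammatory cytokines, went the other way. It went from 9.3, below the floor, to 74.8 and was at least 2.96-fold higher. Its second probe set went from 3.5 to 29.5, at least 1.17-fold higher, so both were below the floor in the control and above it with TDAG8. The log2 bound of 1.57 depended on the floor, with 3.08 as a measured ratio at the 30th percentile and a bound of 0.31 at the 65th. It was also under 2-fold, at 0.90, with the mean over both probe sets. Adamts3, which trims procollagen and pro-VEGF-C, went from 30.3 to 19.4, at least 1.20-fold lower. Adamts6 went from 13.3 to 24.8, over the floor of its array but under that of the control, and has no fold. At the 30th-percentile floor both values passed and its log2 ratio was 0.98. A second probe set of Adamts6 went from 7.5 to 2.5, below the floor on both arrays. The family median with the bounds was -0.33, in which Adamts6 entered at -0.03 with its control value raised to the floor. Adamts7, Adamts12, Adamts16, Adamts18, Adamts19 and Adamts20 were below the floor on both arrays.

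**Figure D3:**
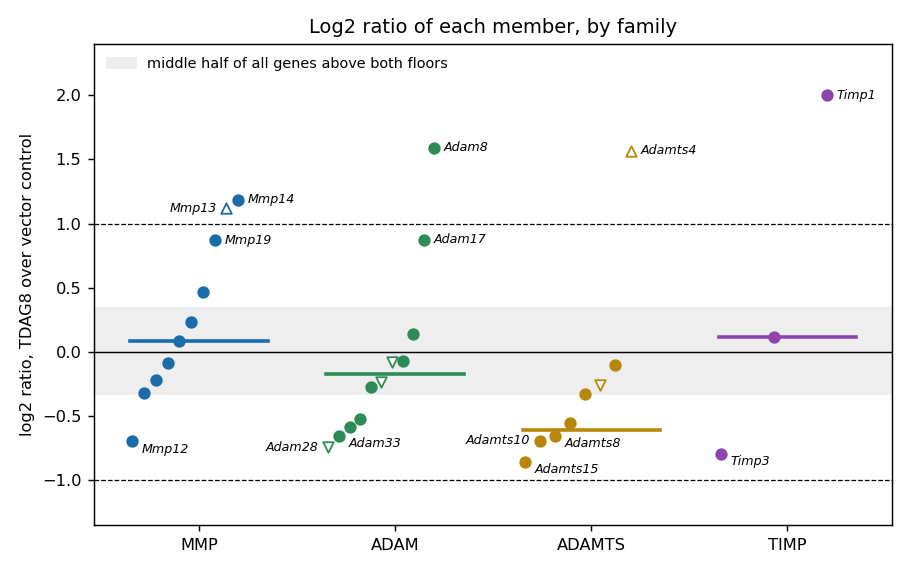
Log2 ratio, TDAG8 divided by vector control, for each member, by family. Filled circles are above the floor on both arrays, open triangles are bounds pointing the way the true value may lie, thick lines are family medians over the filled circles (0.09, -0.17, -0.61 and 0.12), dashed lines mark 2-fold and the grey band runs from -0.33 to 0.34. Adamts6, which has no fold, is not drawn, and all 6 filled ADAMTS circles lie below 0. The TIMP line is the value of Timp2, whose probe sets differed in sign.

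Probe sets of 1 gene read different stretches of its transcripts on the same 2 arrays, so their spread shows how much a ratio depends on the probe set and does not stand for replicates. Of the members 13 had at least 2 probe sets above both floors, and in 12 of them all had the same sign, Timp2 being the exception. Over all genes the same held for 3246 of 4775. The median range between probe sets of a gene was 0.23 on the log2 scale for these members and 0.29 for all genes. The widest ranges were 0.75 for Timp2, 0.73 for Mmp23 and 0.55 for Mmp14. Timp1 and Adam8 had only 1 probe set each and could not be checked this way.

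**Figure D4:**
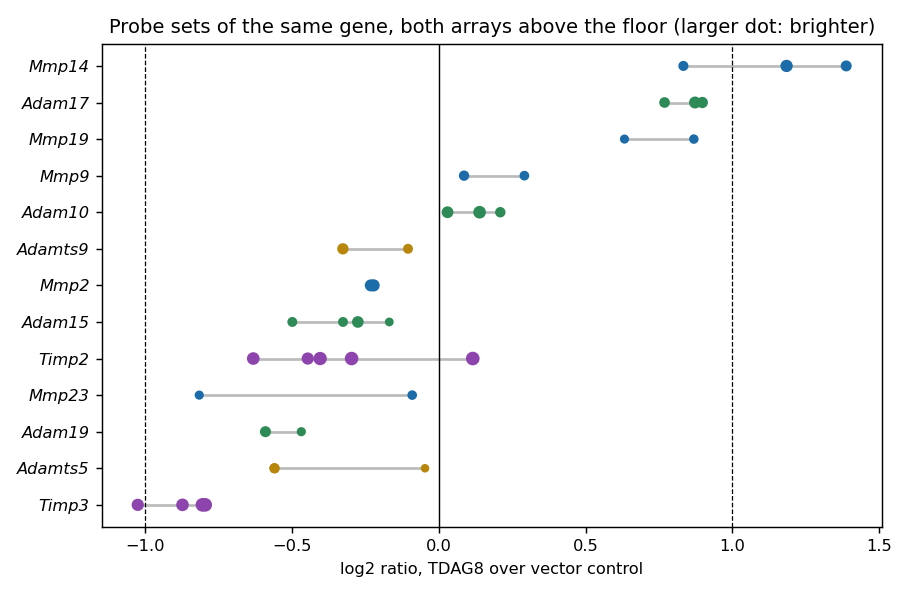
Log2 ratio, TDAG8 divided by vector control, for each probe set above the floor on both arrays, for the 13 members with at least 2 of them, ordered by their median. Larger dots are brighter probe sets, and dashed lines mark 2-fold. The 5 dots of Timp2 run from -0.63 to 0.12 across 0, while the 4 of Timp3 lie between -1.02 and -0.80 and the 3 of Mmp14 between 0.83 and 1.39.

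Genes that control or receive the action of these enzymes were described by list. In the plasminogen activation list, whose plasmin activates several pro-MMPs, 4 of 7 genes were above the floor on at least 1 array. Serpinb2, an inhibitor of urokinase made by macrophages, went from 7.2 to 97.3 and was at least 3.85-fold higher. The urokinase receptor gene Plaur went from 198 to 313, 1.65-fold higher, the plasminogen receptor gene Plgrkt was at 0.49 and the activator gene Plat went from 270.5 to 248. Urokinase itself (Plau) and plasminogen (Plg) were below the floor on both arrays. All 4 proprotein convertase genes, whose products cut the prodomains of MMP14 and most ADAMs, were below 0. Furin was at -0.12, Pcsk7 at -0.12 and Pcsk5 at -0.46, and Pcsk6 went from 49.8 to 23.0, under the floor, at least 1.97-fold lower.

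Of the partners of ADAM10 and ADAM17, 8 of 9 were above both floors, 2 above 0 and 6 below, with a median of -0.18. The iRhom genes Rhbdf1 and Rhbdf2, needed to bring ADAM17 to the cell surface, were at 0.04 and -0.25. The tetraspanin genes Tspan5 and Tspan15, which guide ADAM10, were at -0.53 and -0.47. Among other inhibitors and clearance genes 5 of 11 were above both floors, with a median of -0.37. Reck, a membrane-anchored inhibitor of MMPs, went from 587 to 329, 1.71-fold lower, and the proteoglycan gene Spock2 went from 691 to 386, 1.72-fold lower. Lrp2 was at -0.37 and the protease inhibitor gene Cst3 went from 4000.3 to 3407. Lrp1, a receptor that clears protease and inhibitor complexes, was at 0.12.

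The list of MMP induction and docking had a median of 0.05 over 7 genes, 4 above 0 and 3 below. Cd44, a hyaluronan receptor that holds MMP9 and MMP14 at the membrane, was at 0.50, the integrin gene Itgav at 0.42 and Cldn1 at -0.74, and Bsg, an inducer of MMPs, went from 1895 to 1904.5. In the astacin and meprin list 3 of 7 genes were above both floors. Bmp1, the procollagen C-proteinase, went from 122 to 207, 1.77-fold higher, and its enhancer gene Pcolce from 1314 to 2369.5, 1.88-fold higher. The related enhancer gene Pcolce2 went from 1955 to 1010.4, 1.86-fold lower. Of 6 genes of ADAMTS-like proteins, which lack the protease domain, 5 were below 0, with a median of -0.35. Adamtsl1 was at -0.64, Adamtsl5 at -0.54, Adamtsl4 went from 243 to 211, and Adamtsl3 was at 0.57.

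Substrates went both ways. Of 19 genes of shed membrane proteins 14 were above both floors, 5 above 0 and 9 below, with a median of -0.34. Ereg, an EGF receptor ligand released by ADAM17, went from 15.9 to 100.1 and was at least 3.96-fold higher, whereas Tgfa, another such ligand, went from 96.9 to 51.3, 1.81-fold lower. The decoy receptor gene Il1r2 was at least 1.70-fold higher, Ager went from 6541 to 4397, and Tnf was below the floor on both arrays. Of 19 genes of cleaved matrix proteins 17 were above both floors, 10 above 0 and 7 below, with a median of 0.28. Of the 17, 4 were at least 2-fold higher, or 23.5%, beside 4.96% of all genes above both floors. Vcan, the versican that ADAMTS enzymes cut, went from 90.8 to 235, 2.69-fold higher, Col6a3 was 2.31-fold higher, Col5a1 2.19-fold and Tnc 2.08-fold. Col3a1 went from 3011 to 3402, while Eln, the substrate of MMP12, went from 293.5 to 160.1, 1.76-fold lower. Among factors acting on MMP promoters 13 of 15 were above both floors, 5 above 0 and 8 below, with a median of -0.06. Junb was at 0.88, Etv4 had a lower bound of 0.59 and Jun at -0.06.

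**Figure D5:**
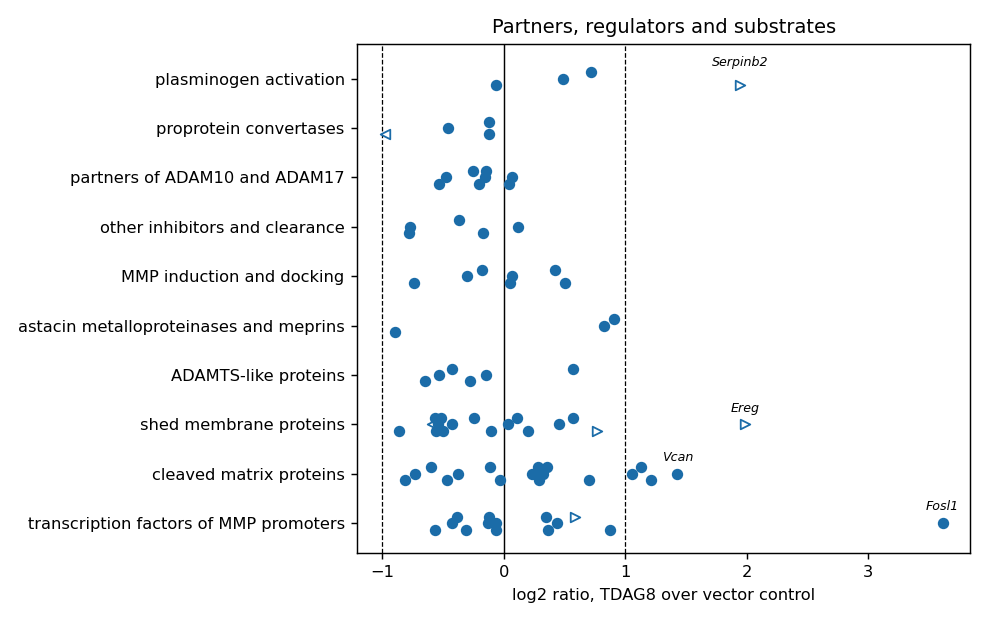
Log2 ratio, TDAG8 divided by vector control, for the genes of 10 lists of partners, regulators and substrates that were above the floor on at least 1 array. Filled circles are above both floors, open triangles are bounds, and dashed lines mark 2-fold. Fosl1 lies at 3.61 and Vcan at 1.43, and all 4 proprotein convertase genes lie below 0.

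Cell type markers differed between the arrays beside these members. Both arrays held lung markers, Sftpc at 7475.5 and 6605 among them. All 6 endothelial and all 6 smooth muscle markers were below 0, with summed intensities going from 5378 to 3286 and from 3590 to 2407. All 6 alveolar type 1 markers were below 0 (summed 16211 to 10835), as were all 5 alveolar type 2 (23337 to 17616) and all 6 club and ciliated cell markers (24596 to 18807). All 6 monocyte and macrophage markers were above 0 (1692 to 2587), where 50% of all genes above both floors lay above 0 by the centring. The 5 markers of dividing cells were all at least 2-fold higher (552 to 2770), beside 4.96% of all genes above both floors. The macrophage sum was mostly that of Csf1r, at 1197 and 1319.5, while the median log2 ratio of the macrophage markers above both floors was 1.28. Of 6 fibroblast markers 3 were above 0 and 3 below (8938 to 9438), and of 5 neutrophil markers 3 were above 0 and 1 below (1413 to 1392). Of 5 T and B cell markers 3 were above 0 and 1 below (297.9 to 313). No marker with a probe set was listed at 0, and Cxcr2 of neutrophils and Cd4 of T cells were below the floor on both arrays. In whole-lung RNA fewer cells of a type, less RNA per cell and a larger share of RNA from other cells, tumour cells included, cannot be told apart. The part of these cell types in the values of the metalloproteinases and TIMPs was not tested.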

How the data were processed

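The values analysed are the intensity values deposited by the authors, 1 per probe set and array, on a linear scale, and each array had been scaled so that its mean, without the outer 2% of probe sets on either side, was 100. Per the labels' protocols, 2 µg of pooled total RNA was primed from the poly(A) tail and labelled by the Affymetrix procedure. The image software is not stated in the labels or the file.

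Of 45101 probe sets 64 controls were set aside. In the platform annotation 34945 carried a single gene symbol, 932 named more than 1 gene and 9160 had no name, and 34741 were matched to RefSeq (GRCm38.p6) for current symbols and gene order. Each gene was represented by its probe set of highest mean log2 intensity. Ratios were centred by a shift of -0.06. No test was run, because each group had 1 array. All steps used Python 3.11.15 with pandas 2.3.3 and were tested on simulated data. Every member above the floor on at least 1 array is named. For the lists of partners, regulators and substrates, the 3 largest differences and the member of highest mean intensity are named, and others were chosen after their values were seen. Cell type markers are given as counts and as sums of deposited intensities, in which the brightest markers weigh most. The members, lists and motifs were chosen with earlier results of these data known. The 8 alternatives changed centring (none, loess with span 0.3), normalization (quantile), the floor (30th or 65th percentile, or an offset) and the probe sets used.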

Additional observations from a re-analysis of the deposited data

How the results depend on the processing

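The count of members at least 2-fold higher was 5 of 33, beside 5.41% of all genes above the floor on at least 1 array. At the 65th-percentile floor it was 3 of 23 (Adam8, Mmp14 and Timp1), beside 4.34%. Under the other 7 alternatives it was 4 or 5 of 31 to 48 members, beside 3.64% to 5.90% of all genes. The count of members at least 2-fold lower, 0, was 1 of 48 at the 30th-percentile floor (Mmp24), beside 2.32% of all genes. It was 0 under the others, beside 0.26% to 1.69%. The ADAMTS median was -0.31 at the 30th-percentile floor, where further members entered, and the TIMP median was -0.33 with the mean over all probe sets. The MMP median was -0.09 at the 65th-percentile floor, the ADAM median 0.01 there, and the TIMP median -0.03 at the 30th-percentile floor. Of 252 values of single members under the alternatives 247 lay within 1.5-fold of the value reported and 5 did not, those of Adamts4, Adamts6 and Mmp19 under other floors or the mean over probe sets. The sign was the same throughout for 30 of 33 members and differed at least once for Adam23, Adamts6 and Timp2. No paired analysis was possible because each group had 1 array. Signals near the floor limit what can be said of Mmp8, Mmp13, Mmp19, Adam33 and Adamts4.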

Other observations

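Timp1, Timp3 and Timp4, but not Timp2, lie inside synapsin genes in the RefSeq gene table, and the hosts were read by probe sets of their own. Syn1, around Timp1, went from below the floor to 43.8, a log2 ratio of at least 0.79. Syn3, around Timp3, was below the floor on both arrays, at 10.9 and 14.7, and Syn2, around Timp4, went from 35.5 to 31.1, a log2 ratio of -0.13. Probe sets annotated to several genes were left out of the report. There were 5 such probe sets with a member among their genes, and the 4 shared by Adam1a and Mapkapk5 had intensities of 0.8 to 36.8 in the vector control and 3.8 to 24.6 in the TDAG8 array.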
